A study of Caenorhabditis elegans with 6 samples.

Results

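The comparison described here asked how the transcripts of one Caenorhabditis elegans strain, UM10, differed between 2 bacterial foods, and it used 4 of the 6 libraries of the study. UM10 carries a transgene, named unkIs7 in the sample titles, in which the promoter of the neuronal gene aex-3 drives the A53T variant of human alpha-synuclein, which runs in families with Parkinson's disease. Both UM10 groups carry it, so the comparison says nothing of the transgene itself. Whole animals were raised from the egg to the L4 stage, the last larval stage, on Escherichia coli K12 strain BW25113 or on csgA(-) bacteria, with 2 libraries for each food. The remaining 2 libraries, from wild-type N2 of the same stage on K12, entered the fit to steady its estimate of the spread and serve below as reference levels. Nothing states that the replicates came from separate cultures, so p-values measure the spread between these libraries, which may be technical.

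The direction of every difference below is uncertain. Libraries were assigned to a food by their sample titles, where WT was read as K12, and the names of the deposited tables give the food of all 4 UM10 libraries the other way round. The tables hold worm genes only, so the bacterial csgA gene could not be used to check the assignment. The human transgene, which both UM10 groups carry, would not tell the foods apart. In what follows, "on csgA(-)" means the libraries whose titles say so, and every sign would be exchanged if the names of the tables were right.

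The bacterial gene csgA encodes the main subunit of curli, the amyloid fibres that E. coli builds on its surface. Worms live on the bacteria that they swallow, and food bacteria supply them with vitamin B12, a cofactor of methionine synthase and of methylmalonyl-CoA mutase. When that vitamin is scarce, C. elegans breaks down propionate by a shunt that begins with the acyl-CoA dehydrogenase ACDH-1, and acdh-1 is a common reporter of the state of this pathway. The intestine, which takes up the food, also makes most of the enzymes of fat metabolism and detoxification and many of the secreted antibacterial proteins.

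Gene counts ranged from 22763401 to 23532382 in the UM10 libraries. Levels are given as CPM, counts scaled by TMM to the same total in every library, and differences as log2 fold changes of csgA(-) over K12. Across genes, log2 CPM correlated at 0.959 between the K12 replicates and at 0.949 between the csgA(-) replicates, while the 4 pairs of libraries on different foods reached 0.922 to 0.953. Genes that mark body wall muscle, intestine, neurons, germline, sperm and oocytes were detected in all 4 libraries. Summed over 8 intestinal markers, the level was 8717 and 8586 CPM in K12 replicates 1 and 2 and 12254 and 9121 CPM in csgA(-) replicates 1 and 2. Whole animals do not separate fewer cells of a type from less RNA per cell, which holds for every result below. One library stood apart in its heat shock genes. The 9 inducible members summed to 1931 CPM in csgA(-) replicate 1, against 73.3 in csgA(-) replicate 2, 4.25 in K12 replicate 1 and 164 in K12 replicate 2, and that library weighed on several counts below.

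With the quasi-likelihood test of edgeR and Benjamini-Hochberg adjustment, 0 of 15331 genes tested (0%) were called at an adjusted p under 0.05, and the smallest adjusted p was 0.0647. An unadjusted p under 0.05 was reached by 1521 genes (9.92%), of which 808 (5.27%) were higher and 713 (4.65%) lower on csgA(-). DESeq2 called 74 genes higher (0.483%) and 168 lower (1.1%) from the same counts, and all 242 also had an edgeR p under 0.05 and did not overlap between the foods. Absence of overlap alone is common with 2 libraries against 2, and 21.7% of genes tested met it in the higher and 19% in the lower direction. Leaving out csgA(-) replicate 1 gave 6 edgeR calls, leaving out csgA(-) replicate 2 gave 78 and leaving out K12 replicate 1 gave 1. The share of all genes higher at an unadjusted p under 0.05 was then 2.49% without csgA(-) replicate 1, 4.78% without csgA(-) replicate 2, 1.44% without K12 replicate 1 and 3.72% without K12 replicate 2. The shares of lower genes in the same order were 4.33%, 7.46%, 3.77% and 4.2%. Ranges of list counts below are over these 4 fits with 1 UM10 library left out. Counts for lists are to be read against the share of all genes in the same fit. Counts were also simulated with the same depth and spread per gene, each gene drawn independently and 200 set to differ. The test recovered 25.5% of genes set to differ 4-fold and 93.5% of those set to differ 16-fold, with 6 false calls among 57 and 14 among 201. Shifts shared by many genes of 1 library were not simulated, so these shares may not hold for the real libraries.

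**Figure D1:**
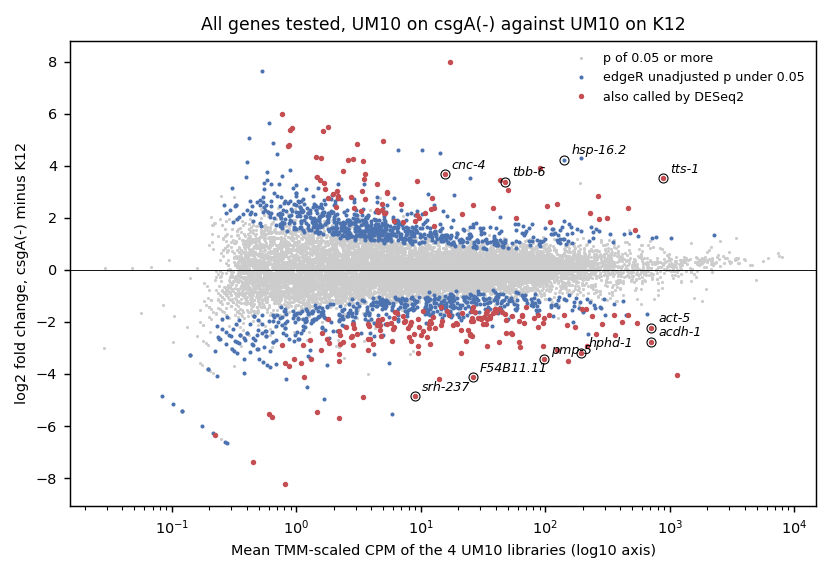
Log2 fold change of csgA(-) over K12 in UM10 (vertical axis) against the mean CPM of the 4 UM10 libraries (log10 horizontal axis) for the 15331 genes tested, 1 point per gene. Blue points had an unadjusted edgeR p under 0.05 and red points were also called by DESeq2, 74 of them above 0 and 168 below.

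Because no gene passed the adjusted threshold, genes are described by rank. The 12 genes with the smallest p in each direction, among those whose foods did not overlap and whose higher food averaged 50 counts or more, had adjusted p from 0.0647 to 0.128 (edgeR quasi-likelihood, Benjamini-Hochberg), and DESeq2 called all 24. The N2 libraries on K12 lay on the same side as UM10 on K12. In both csgA(-) libraries the 12 lower genes were below both N2 libraries and the 12 higher genes above them.

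Among the genes higher on csgA(-), tbb-6 (chromosome V 12261531 to 12263368, build WBcel235, protein-coding) encodes a divergent beta-tubulin and is used as a reporter of mitochondrial dysfunction that acts through the p38 kinase PMK-3. It was at 6.31 and 10.2 CPM in K12 replicates 1 and 2 and at 91.3 and 81.1 CPM in csgA(-) replicates 1 and 2, with 7.97 and 3.42 CPM in N2. Both csgA(-) libraries were far above all 4 others. The means of 86.2 ± 7.22 and 8.27 ± 2.78 CPM (SD, n = 2 each) gave a log2 fold change of 3.38 (standard error 0.50, adjusted p 0.0900 by edgeR's quasi-likelihood test, 2.10e-07 by DESeq2).

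The non-coding RNA tts-1 (X 1504131 to 1504841), which is known from long-lived mutants, where it lowers ribosome levels, was at 137 and 147 CPM on K12 and 2020 and 1223 CPM on csgA(-). N2 had 20.7 and 4.84 CPM, so the groups lay in 3 separate ranges. The log2 fold change between the foods was 3.51 (standard error 0.70). The antimicrobial peptide gene cnc-4, a caenacin of the epidermis, was at 2.38 and 2.14 CPM on K12 and 37.2 and 20.5 CPM on csgA(-), a log2 fold change of 3.67 (standard error 0.57). The N2 libraries, at 12.31 and 5.19 CPM, lay between the 2 foods. ilys-3, an invertebrate-type lysozyme that digests bacterial cell walls, was at 7.003 and 8.69 CPM on K12 and 25.3 and 63.7 CPM on csgA(-), with both N2 libraries under all of these at 0.797 and 0.605 CPM.

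C50F7.5, at a mean of 11.18 ± 6.95 CPM on K12 (SD, n = 2), reached 261 CPM in csgA(-) replicate 1 and 79.8 CPM in replicate 2. fbxa-163, of the F-box A family of likely adaptors for protein degradation, was at 0.403 and 0.295 CPM against 2.18 and 10.7 CPM. For WBGene00012618, a pseudogene, csgA(-) replicate 1 had 66.4 CPM and replicate 2 only 1.73, against at most 0.221 CPM on K12. The csgA(-) libraries were above the K12 libraries in each case, but replicate values differed several-fold. The other members were WBGene00014454, a mitochondrial ribosomal RNA described below, WBGene00013155, also a pseudogene, and rpr-1, the RNA of ribonuclease P, together with T12D8.5 and the dynein heavy chain gene dhc-4. The last 3 overlap ints-8, taf-9 and a cluster that includes col-92, respectively, and counting without strand cannot tell such reads apart.

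Among the genes lower on csgA(-), F54B11.11 was at 30.8 and 67.97 CPM on K12 and 2.51 and 3.11 CPM on csgA(-), with 71.6 and 46.95 CPM in N2. The chemoreceptor gene srh-237 was at 16.3 and 18.3 CPM on K12 and 0.288 and 0.883 CPM on csgA(-). pmp-5, which encodes an ABC transporter of the peroxisome, was at 133 and 222 CPM on K12 and 12.9 and 20.0 CPM on csgA(-), with 315 and 220 CPM in N2. In all 3 genes both csgA(-) libraries were below the other 4. The log2 fold change of pmp-5 was -3.43 (standard error 0.51, adjusted p 0.0900 by edgeR's quasi-likelihood test, 2.89e-10 by DESeq2).

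glf-1, the UDP-galactopyranose mutase needed for galactofuranose in surface glycans, was at 44.6 and 42.8 CPM on K12 and 9.33 and 5.53 CPM on csgA(-), and N2 stood close to K12 with 58.1 and 63.1 CPM. mboa-1, of the membrane-bound O-acyltransferases that esterify lipids, was at 12.17 and 16.8 CPM against 2.34 and 2.03 CPM. dod-17, named for its place downstream of the insulin-regulated factor DAF-16, was at 17.01 and 17.1 CPM against 1.11 and 2.65 CPM. These 3 genes had log2 fold changes of -2.56, -2.73 and -3.18. The rest of the 12 were the acid phosphatase gene pho-13, which overlaps appg-2, the lipase gene lips-6, the chemoreceptor gene str-168, K10D11.5, T23F6.5 and the acyl-CoA oxidase gene acox-1.4.

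**Figure D2:**
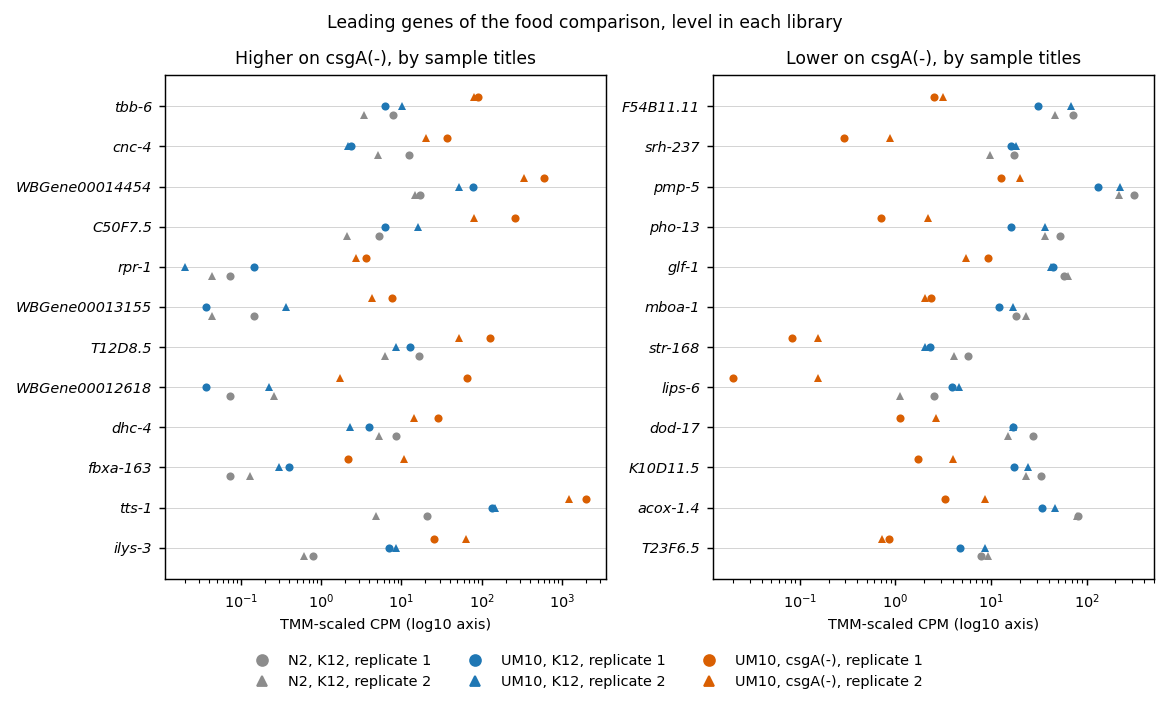
Level of the 12 leading genes in each direction in every library, in CPM on a log10 axis, with higher genes on the left and lower genes on the right. Grey marks N2 on K12, blue UM10 on K12 and orange UM10 on csgA(-), circles are replicate 1 and triangles replicate 2, and a value of 0 is drawn at 0.02 CPM. The orange symbols of each gene lie beyond both the blue and the grey ones.

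Genes of propionate breakdown, the methionine cycle and vitamin B12 were mostly lower on csgA(-). Of 26 on the list, 10 were lower at an unadjusted p under 0.05 and 0 higher, against 4.65% and 5.27% of all genes tested, and the median log2 fold change was -0.79, against 0.00 over all genes. DESeq2 called 6 of them lower. The count was 6 without csgA(-) replicate 1 and 10 without K12 replicate 1, with 7 and 9 in the other fits, and the medians without csgA(-) replicates 1 and 2 were -0.69 and -0.99.

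Within that list the first enzymes of the propionate shunt were lower. acdh-1 (I 6497436 to 6499560) was at 1140 and 1343 CPM in K12 replicates 1 and 2, at 133 and 235 CPM on csgA(-) and at 2368 and 1701 CPM in N2. The means of 1241 ± 144 on K12 and 184 ± 72.4 on csgA(-) (SD, n = 2 each) gave a log2 fold change of -2.75 (standard error 0.56, adjusted p 0.128 by edgeR's quasi-likelihood test, 5.90e-07 by DESeq2). The csgA(-) libraries did not reach any of the other 4.

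ech-6, the enoyl-CoA hydratase of the next step, was at 417 and 449.96 CPM on K12 and at 75.4 and 83.2 CPM on csgA(-), a log2 fold change of -2.45 (standard error 0.56). hphd-1 (II 12994354 to 12996571), which oxidizes 3-hydroxypropionate, was at 338 and 365 CPM against 32.7 and 44.7 CPM, a log2 fold change of -3.18 (standard error 0.59, DESeq2 adjusted p 9.24e-07). N2 replicate 1 held the highest level of both, 1599 CPM for ech-6 and 1267 CPM for hphd-1, against 631 and 445 CPM in N2 replicate 2. hach-1, the hydrolase between those steps, was chosen after its values were seen, as were alh-8 and the genes of the vitamin B12-dependent route and the methionine cycle below. It was at 114.1 and 122 CPM against 52.6 and 44.5 CPM, a smaller difference of -1.28 (unadjusted edgeR quasi-likelihood p 0.0180). alh-8, which closes the shunt and also degrades valine, did not follow, with 1093 and 879 CPM on K12 and 1226 and 1265 CPM on csgA(-).

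Genes of the vitamin B12-dependent route of propionate breakdown had log2 fold changes from -0.17 to 0.49. pcca-1 and pccb-1, the subunits of propionyl-CoA carboxylase, had log2 fold changes of 0.49 and -0.17, and mmcm-1, the mutase that uses the vitamin, had 0.28. The epimerase gene mce-1 had 0.38, with -0.28 without K12 replicate 2 and 1.12 without K12 replicate 1. mmcm-1 was at 118 and 139 CPM on K12 and 154 and 158 CPM on csgA(-), and pcca-1 at 172 and 198 CPM against 236 and 285 CPM. Neither overlapped between the foods, while pccb-1 and mce-1 did. The unadjusted p of pcca-1, pccb-1 and mmcm-1 in edgeR's quasi-likelihood test were 0.274, 0.722 and 0.495, which does not show that the levels were equal.

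In the methionine cycle, mtrr-1, the reductase that keeps methionine synthase active, was at 112 and 220 CPM on K12 and 47.8 and 51.4 CPM on csgA(-), a log2 fold change of -1.74 (standard error 0.46). mel-32, the serine hydroxymethyltransferase that feeds it with 1-carbon units, was at 543 and 863 CPM against 211 and 216 CPM, and both were called by DESeq2 (adjusted p 0.0108 and 0.0267). The synthase gene metr-1 overlapped between the foods, with 265 and 761 CPM against 145 and 306 CPM. sams-1, which makes the methyl donor S-adenosylmethionine, was at 747 and 1257 CPM on K12 and at 94.3 CPM in csgA(-) replicate 1 but 530 CPM in replicate 2. nhr-114, a nuclear receptor of the vitamin B12 response named by rank, was at 61.2 and 137 CPM against 17.3 and 32.9 CPM, and nhr-68, a receptor that activates the propionate shunt chosen after its values were seen, was at 79.7 and 50.8 CPM against 20.4 and 42.9 CPM.

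**Figure D3:**
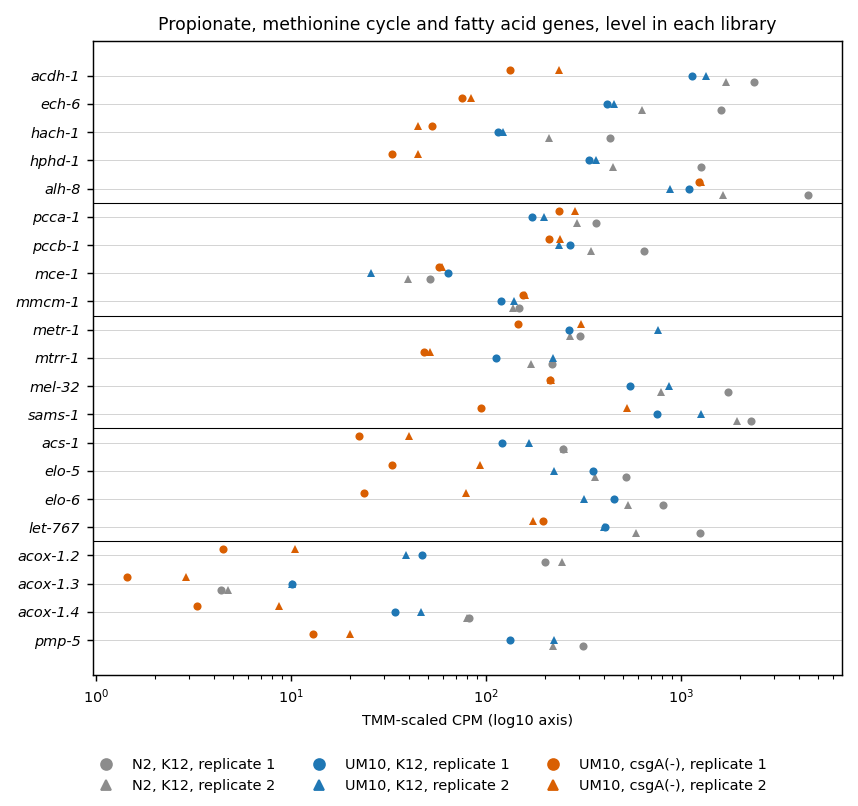
Level in every library, in CPM on a log10 axis, of genes of the propionate shunt, the vitamin B12-dependent route, the methionine cycle, branched-chain fatty acid synthesis and peroxisomal beta-oxidation, from top to bottom and separated by lines. Grey marks N2 on K12, blue UM10 on K12 and orange UM10 on csgA(-), circles are replicate 1 and triangles replicate 2. For acdh-1 the orange symbols lie at 133 and 235 CPM, and those of mmcm-1 at 154 and 158 CPM are to the right of the blue ones.

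The list of fatty acid synthesis and desaturation had a median log2 fold change of -0.28, and -0.57 to -0.14 with 1 UM10 library left out. Of its 25 genes, 7 were lower at an unadjusted p under 0.05 and 1 higher, against 4.65% and 5.27% of all genes tested. The lower ones included the enzymes that make monomethyl branched-chain fatty acids, which worms build from branched-chain amino acids and need for growth. elo-6, an elongase of that pathway, was at 451 and 316 CPM on K12 and 23.5 and 78.7 CPM on csgA(-), with 808 and 534 CPM in N2. The elongase gene elo-5 was at 351 and 222 CPM against 33.0 and 92.8 CPM. acs-1, the acyl-CoA synthetase that activates these acids, was at 120 and 166 CPM against 22.3 and 40.0 CPM, although it overlaps hpo-26 and other genes. In all 3 the csgA(-) libraries were under K12 and N2, and the log2 fold changes of elo-6 and elo-5 were -2.91 and -2.19 (standard errors 0.63 and 0.57). let-767, a ketoacyl reductase of the same pathway chosen after its values were seen, was at 408 and 400 CPM against 195 and 174 CPM.

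The list of fatty acid activation and beta-oxidation shares the lower genes acdh-1 with the propionate list and acs-1 with the fatty acid synthesis list. The counts of these lists are therefore not independent. Of its 62 genes tested, 10 were lower at an unadjusted p under 0.05 and 3 higher, against 4.65% and 5.27% of all genes tested. The median was -0.20. There were 18 lower without csgA(-) replicate 2, against 7.46% of all genes tested, and 8 to 10 in the other fits. Acyl-CoA oxidases start peroxisomal beta-oxidation and shorten the side chains of ascaroside pheromones. The neighbours acox-1.2, acox-1.3 and acox-1.4 on chromosome I were each lower, and other acyl-CoA oxidase genes are not described here. acox-1.4 was at 33.95 and 46.3 CPM on K12 and 3.29 and 8.60 CPM on csgA(-), although it overlaps F08A8.8. acox-1.2 was at 46.7 and 38.7 CPM against 4.48 and 10.5 CPM, and its neighbour acox-1.3, chosen after its values were seen, at 10.05 and 10.06 CPM against 1.44 and 2.88 CPM. The log2 fold changes were -2.75, -2.51 and -2.21 in this order. N2 was above both foods with 81.5 and 79.4 CPM of acox-1.4 and 199 and 246 CPM of acox-1.2. For acox-1.3 it lay between the foods, at 4.35 and 4.71 CPM. Reads shared by such similar neighbours could be lost to several mapped places.

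act-5, the actin of intestinal microvilli, and pept-1, the intestinal peptide transporter, were chosen after their values were seen. act-5 was at 1031 and 1292 CPM on K12 and 136 and 361 CPM on csgA(-), with 5538 and 1901 CPM in N2 (log2 fold change -2.22, DESeq2 adjusted p 0.00864). pept-1 was at 149 and 246 CPM on K12 and at 5.92 CPM in csgA(-) replicate 1 but 104.4 CPM in replicate 2. Both are also among the 8 intestinal markers, of which 7 had a negative log2 fold change and 1 had an unadjusted p under 0.05, while their summed level was higher on csgA(-). The part of intestinal content in the metabolic differences was not tested.

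Detoxification enzymes, which add polar groups to foreign or waste compounds, leaned lower. Over all genes tested, 4.65% were lower and 5.27% higher at an unadjusted p under 0.05. Of 59 UDP-glucuronosyltransferases tested, 13 were lower and 4 higher at that threshold, with a median log2 fold change of -0.66. With 1 UM10 library left out there were 7 to 17 lower and 0 to 6 higher. ugt-63 was at 15.3 and 11.3 CPM on K12 and 3.21 and 3.34 CPM on csgA(-), and ugt-47 at 62.8 and 53.0 CPM against 20.5 and 20.2 CPM. Neither gene overlapped between the foods. Of 57 cytochrome P450 genes, 8 were lower and 2 higher, with a median of -0.36, and leaving out 1 library gave 7 to 9 lower and 1 to 4 higher. One of the higher was cyp-14A5, at 3.30 and 4.57 CPM on K12 and 14.2 and 26.03 CPM on csgA(-). Of 40 glutathione S-transferases, 5 were lower and 3 higher with a median of -0.32, which was 0.05 without K12 replicate 1, where 1 was lower and 1 higher. gst-4, the usual reporter of the oxidative stress factor SKN-1, was at 6.09 and 5.01 CPM on K12 and 3.21 and 2.84 CPM on csgA(-), and N2 was well above both with 40.2 and 24.6 CPM.

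The antioxidant enzymes had a median of 0.08, which was negative under a stricter filter and with only the UM10 libraries. With 1 UM10 library left out it ran from -0.19 without csgA(-) replicate 2 to 0.10 without K12 replicate 2. Of 19 tested, 1 was higher and 1 lower at an unadjusted p under 0.05, against 5.27% and 4.65% of all genes tested. The lower one, msra-1, reduces oxidized methionine in proteins and was at 68.97 and 373 CPM on K12 and 21.98 and 29.9 CPM on csgA(-). The K12 replicates differed widely, and the log2 fold change of -3.09 was -1.57 without K12 replicate 2. sod-3, the mitochondrial superoxide dismutase that reports DAF-16 activity, overlapped between the foods with 5.72 and 1.03 CPM against 4.77 and 10.2 CPM. The cytosolic catalase gene ctl-1 had at most 0.0384 CPM in every UM10 library, against 14.9 and 6.53 CPM in N2, so both foods were at the limit of detection.

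Among immune genes, C-type lectins were more often lower than higher. Of 115 C-type lectins tested, sugar-binding proteins that are often secreted in the gut, 22 were lower and 6 higher at an unadjusted p under 0.05. The shares of all genes tested were 4.65% and 5.27%, and the median of the list was -0.36. With 1 UM10 library left out 14 to 25 were lower and 0 to 5 higher, and the 0 came without csgA(-) replicate 1 and without K12 replicate 1. clec-80 was at 47.5 and 48.2 CPM on K12 and 11.8 and 14.4 CPM on csgA(-), with 102 and 59.9 CPM in N2. clec-218 was at 49.1 and 21.4 CPM against 8.05 and 6.14 CPM, and clec-5 at 47.1 and 54.9 CPM against 16.107 and 7.76 CPM. All 3 were below both N2 libraries on csgA(-). Of 7 infection response genes (irg) tested, 3 were lower and 0 higher. One of the 3 was irg-8, with 775 and 989 CPM on K12 and 191 and 242 CPM on csgA(-) (log2 fold change -2.03, DESeq2 adjusted p 0.00255). irg-1, a reporter of translation block by pathogens, was at 6.53 and 4.42 CPM against 1.11 and 2.65 CPM.

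Lysozymes, saposins and antimicrobial peptides had no clear direction, with 6 of 66 higher and 2 lower at an unadjusted p under 0.05 against 5.27% and 4.65% of all genes tested. The median was 0.16, and -0.21 without csgA(-) replicate 1, where 6 members were higher and 7 lower against 2.49% and 4.33% of all genes tested. Besides cnc-4 and ilys-3, abf-2, a defensin-like antibacterial factor, was at 0.843 and 0.553 CPM on K12 and 3.86 and 5.80 CPM on csgA(-). DESeq2 called 4 of the 66 higher and 0 lower.

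Body-shape collagens and moulting genes were lower on csgA(-) more often than higher, while col collagens and pharyngeal cuticle genes had medians of 0.09 and 0.14. The cuticle is a collagen coat that the epidermis rebuilds at each moult, and groups of collagens are made in pulses at set times of each cycle. Of 20 collagens known from body-shape mutants, 10 were lower and 0 higher at an unadjusted p under 0.05, against 4.65% and 5.27% of all genes tested. With no overlap 14 were lower, against 19%. The median was -0.99, and -1.46 and -0.79 without csgA(-) replicates 1 and 2, where fewer were lower at that p. By contrast, the 131 col collagens tested had 12 higher and 8 lower and a median of 0.09, which was -0.003 with DESeq2 size factors. Their higher count was 2 without K12 replicate 2, 5 without csgA(-) replicate 1 and 16 without K12 replicate 1. Of 80 genes of the pharyngeal cuticle, 3 were lower and 0 higher, with a median of 0.14, and 7 were higher without csgA(-) replicate 1 while 11 were lower without csgA(-) replicate 2.

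The furrow collagens DPY-2, DPY-3, DPY-7, DPY-8, DPY-9 and DPY-10, which form the annular furrows and are made early in each cycle, were lower together, and the first 3 were chosen after their values were seen. dpy-10 was at 33.0 and 59.5 CPM on K12 and 15.7 and 9.98 CPM on csgA(-), a log2 fold change of -1.85 (standard error 0.49). dpy-7 was at 39.5 and 76.8 CPM against 23.7 and 12.98 CPM, and dpy-2 at 37.3 and 65.2 CPM against 19.3 and 15.2 CPM. The 6 genes had log2 fold changes from -1.85 to -1.57, and in each the csgA(-) libraries were under both K12 and both N2 libraries. Outside the furrow group, lon-3, which sets body length, was at 55.4 and 66.1 CPM against 20.9 and 18.4 CPM, and rol-6, the collagen behind the roller phenotype, at 190.2 and 216 CPM against 90.1 and 93.0 CPM. rol-6 did not overlap either, with a smaller log2 fold change of -1.15.

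Of 29 moulting genes, 10 were lower and 0 higher at an unadjusted p under 0.05, against 4.65% and 5.27% of all genes tested. Their median was -0.99 and ranged from -1.39 to -0.48 with 1 UM10 library left out. The lower count was then 5 without K12 replicate 2, 6 without csgA(-) replicate 2, 11 without csgA(-) replicate 1 and 14 without K12 replicate 1. nas-37, a metalloprotease that helps to shed the old cuticle, was at 47.3 and 64.5 CPM on K12 and 14.9 and 16.39 CPM on csgA(-). lin-42, the worm relative of the clock gene period, which times the moults, was at 283 and 341 CPM against 116 and 102 CPM. mlt-10, a moulting reporter chosen after its values were seen, was at 67.8 and 95.5 CPM against 28.6 and 19.5 CPM. All 3 were lower in both csgA(-) libraries than in any other library, N2 included. The marker list of hypodermis and cuticle, which shares rol-6 and dpy-7 with these genes, had 3 of 8 lower, and its summed level was 1834 and 1926 CPM on K12 and 2142 and 1310 CPM on csgA(-). The animals' position within the L4 moulting cycle was not measured, and its part in these differences was not tested.

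Of 44 hedgehog-related and ground-like genes, secreted epidermal proteins of which several act in moulting, 8 were lower and 5 higher, with a median of -0.69. Without csgA(-) replicate 1 the counts were 16 lower and 1 higher, against 4.33% and 2.49% of all genes, but without csgA(-) replicate 2 they were 5 and 5, against 7.46% and 4.78%. wrt-10 was at 55.7 and 107 CPM on K12 and 15.6 and 14.7 CPM on csgA(-), a log2 fold change of -2.42 (standard error 0.46, DESeq2 adjusted p 6.44e-05). wrt-4 was at 105 and 74.2 CPM against 6.90 and 26.2 CPM.

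**Figure D4:**
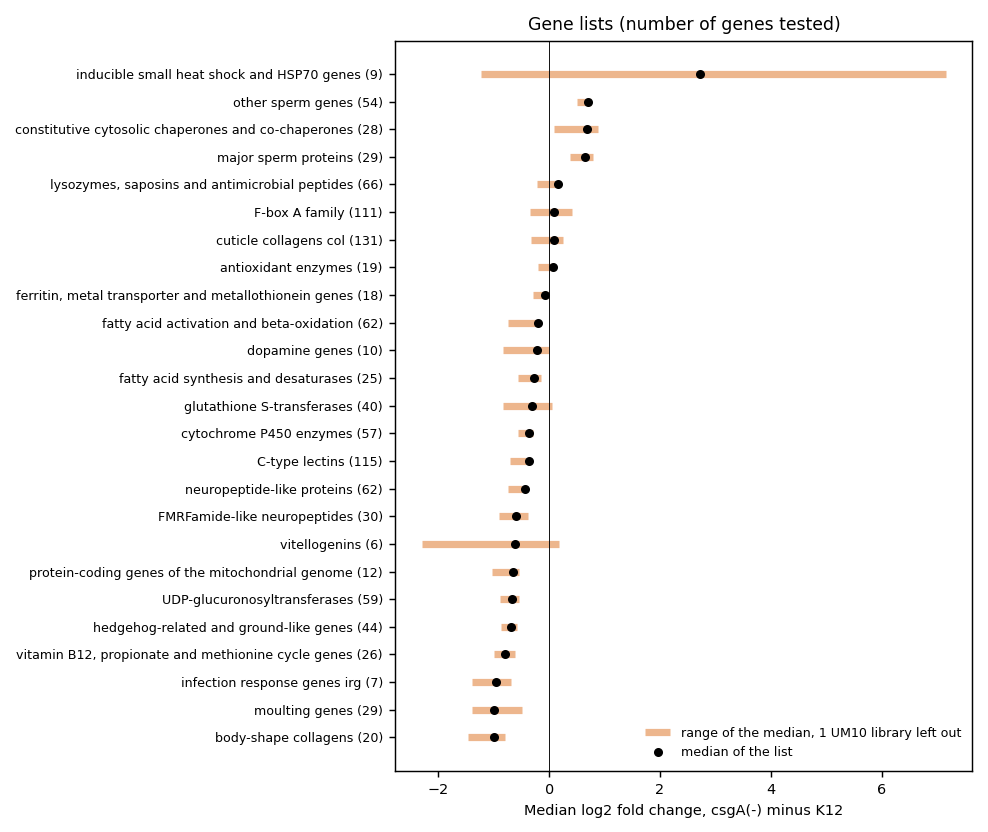
Median log2 fold change of csgA(-) over K12 for each gene list (black points, number of genes tested in brackets), with bars for the range of that median when 1 UM10 library was left out. Body-shape collagens and moulting genes had medians of -0.99, the bar of the inducible heat shock genes runs from -1.23 to 7.16, and that of the vitellogenins crosses 0 to reach 0.18.

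Sperm genes had positive median log2 fold changes, also with 1 UM10 library left out, but the number passing the unadjusted test depended on single libraries. L4 hermaphrodites make sperm before they turn to oocytes. Of 29 major sperm protein genes, which encode the cytoskeletal protein of the crawling sperm and are near-identical copies, 2 were higher and 0 lower at an unadjusted p under 0.05, 26 were higher with no overlap against 21.7% of all genes tested, and the median was 0.65. The 2 were 1 without csgA(-) replicate 2 and 0 in the other 3 fits with 1 UM10 library left out. Of 54 other sperm genes, 9 were higher and 0 lower, and 41 were higher and 0 lower with no overlap. Their median was 0.71 and ranged from 0.50 to 0.75 with 1 UM10 library left out. Without csgA(-) replicates 1 and 2 there were 2 and 4 higher, near the 2.49% and 4.78% of all genes, and without K12 replicates 1 and 2 there were 0 and 10.

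spe-18, which helps to assemble sperm organelles, was at 21.4 and 38.4 CPM on K12 and 81.4 and 91.4 CPM on csgA(-), with 51.8 and 72.2 CPM in N2. spe-47 was at 0.990 and 2.21 CPM against 7.48 and 7.41 CPM, and the sperm phosphatase gene gsp-4 at 16.46 and 28.5 CPM against 45.2 and 46.6 CPM. All 3 were also higher on csgA(-) than in N2. Of 32 oocyte and eggshell genes tested, 0 were higher or lower at an unadjusted p under 0.05, and the summed level of 7 oocyte markers overlapped between the foods, at 1964 and 3169 CPM on K12 and 3255 and 2242 CPM on csgA(-).

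Yolk protein genes were uneven. vit-1 was at 357 and 742 CPM on K12 and 222 and 109 CPM on csgA(-), and vit-4 at 271 and 483 CPM against 126 and 10.3 CPM. These 2 of the 6 vitellogenins were lower at an unadjusted p under 0.05. vit-2 was at 4451 and 7843 CPM on K12, 13906 CPM in csgA(-) replicate 1 and 4045 CPM in replicate 2, which spanned both K12 libraries. The median of the list was -0.61. It was 0.18 without csgA(-) replicate 2, where 0 were lower, and -2.298 without csgA(-) replicate 1, where 3 were.

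Transcripts of the mitochondrial genome went in 2 directions. Its protein-coding genes, which encode subunits of the respiratory chain and the ATP synthase, were lower in 12 of 12 cases by the sign of the log2 fold change. With no overlap 7 were lower, against 19% of all genes tested. At an unadjusted p under 0.05, 2 were lower, against 4.65%, and this number changed with 1 UM10 library left out. The median was -0.65, and -1.03 to -0.54 in those fits. WBGene00010963, the ND4 gene by its start in RefSeq, was at 321 and 265 CPM on K12 and 79.5 and 129 CPM on csgA(-), with 394 and 387 CPM in N2. Its log2 fold change was -1.49 (standard error 0.46, DESeq2 adjusted p 0.0247). WBGene00010967, ND5 by the same match, was at 84.0 and 76.0 CPM against 46.5 and 42.9 CPM. These 12 genes share 1 circular genome and are not independent.

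Both ribosomal RNA genes of the same genome were higher. WBGene00014454 was at 77.8 and 52.8 CPM on K12 and 607 and 334 CPM on csgA(-), with 17.2 and 14.7 CPM in N2, and its log2 fold change was 2.85 (standard error 0.49). WBGene00014472 was at 87.004 and 47.3 CPM on K12 and 235 and 155 CPM on csgA(-). Poly-A RNA was selected before sequencing, so these levels are those of ribosomal RNA that passed that step. Of 39 nuclear subunits of the respiratory chain and 69 mitochondrial ribosomal proteins, 0 in either direction had an unadjusted p under 0.05, and the medians were -0.20 and -0.26. hsp-6 and hsp-60, the usual reporters of the mitochondrial unfolded protein response, overlapped between the foods. hsp-6 was at 363 and 860 CPM on K12 and 852 and 715 CPM on csgA(-), and hsp-60 at 131 and 281 CPM against 211 and 210.0 CPM.

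The values of inducible heat shock genes rested on single libraries. Of the 9 inducible small heat shock and HSP70 genes, 4 were higher and 0 lower at an unadjusted p under 0.05, and 1 had no overlap. The count was 0 without csgA(-) replicate 1 and 7 without csgA(-) replicate 2, where 4.78% of all genes tested were higher, and the median of 2.72 was -1.23 and 3.61 in the same order. hsp-16.2, a small chaperone of aggregating proteins, was at 0.990 and 27.6 CPM on K12 and at 522 and 16.9 CPM on csgA(-). csgA(-) replicate 2 thus lay between the K12 libraries, and the log2 fold change of 4.24 was 0.12 without csgA(-) replicate 1. hsp-70 was at 2.24 and 66.6 CPM against 677 and 11.02 CPM, and its sign turned, to -1.76, without the same library. F44E5.4, an HSP70 gene chosen after its values were seen, was at 0.147 and 14.04 CPM against 1.97 and 0.998 CPM and so did not share the peak of csgA(-) replicate 1. The pairs of hsp-16.1 and hsp-16.48 genes are near-identical, so reads between them may have been left out.

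Constitutive chaperones followed in part. Of 28, 3 were higher and 0 lower (1 to 7 higher with 1 UM10 library left out), with a median of 0.69 that was 0.09 without csgA(-) replicate 1. hsp-90, the cytosolic HSP90, was at 1078 and 1501 CPM on K12 and 4391 and 2173 CPM on csgA(-). hsp-12.6, a small heat shock gene under DAF-16, was at 0.843 and 2.43 CPM against 8.30 and 7.83 CPM, which was alike in both csgA(-) replicates (DESeq2 adjusted p 0.0284). hsp-4, the chaperone that reports stress of the endoplasmic reticulum, was at 271 and 365 CPM on K12, 988 CPM in csgA(-) replicate 1 and 269 CPM in replicate 2, and its log2 fold change of 0.99 was -0.39 without csgA(-) replicate 1.

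**Figure D5:**
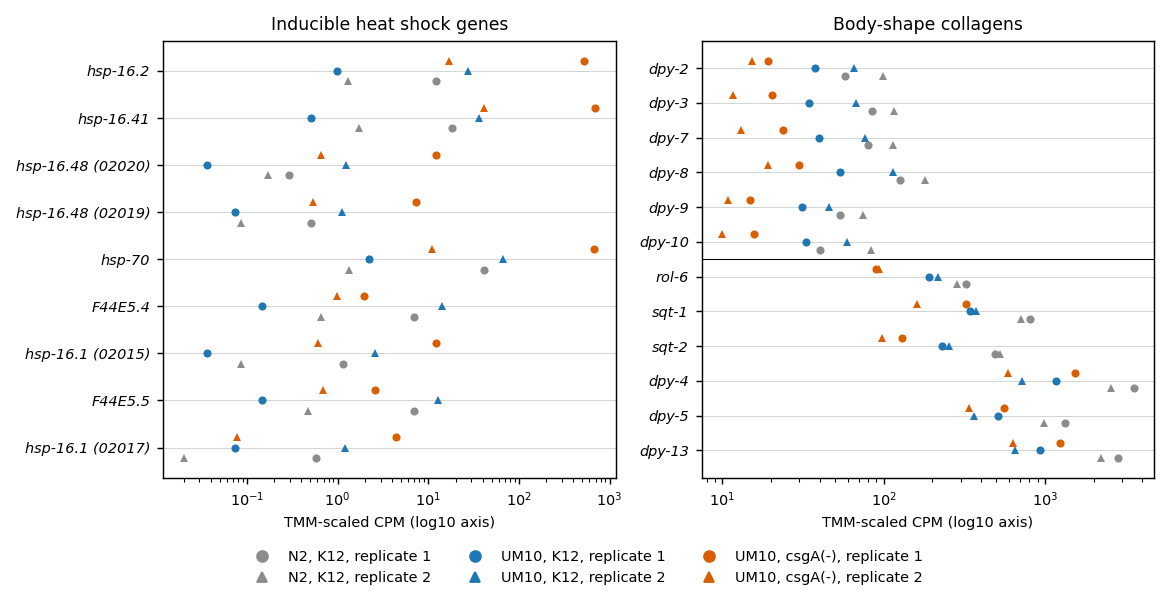
Level in every library, in CPM on a log10 axis, of inducible heat shock genes (left, with the last digits of the gene identifier for near-identical pairs) and of body-shape collagens (right, furrow collagens above the line). Grey marks N2 on K12, blue UM10 on K12 and orange UM10 on csgA(-), circles are replicate 1, triangles replicate 2, and a value of 0 is drawn at 0.02 CPM. The orange circle of hsp-16.2 stands alone at 522 CPM, while both orange symbols of each furrow collagen lie to the left of the others.

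Neuropeptide genes had negative median log2 fold changes, but few neuronal genes had an unadjusted p under 0.05. aex-3, the donor of the transgene's promoter, was at 13.6 and 18.9 CPM on K12 and 9.82 and 27.8 CPM on csgA(-). Its range on csgA(-) enclosed that on K12, and the sign of its log2 fold change of 0.21 turned without csgA(-) replicate 2 (-0.77) or K12 replicate 1 (-0.09). Of 24 genes of synaptic vesicle release, 0 had an unadjusted p under 0.05, and 3 were lower without csgA(-) replicate 2. Of 30 FMRFamide-like neuropeptide genes (flp), 3 were lower and 0 higher, 15 were lower with no overlap against 19% of all genes tested, and the median was -0.60. The lower count was 1 without csgA(-) replicate 1 and 6 without csgA(-) replicate 2. flp-16 was at 51.3 and 63.0 CPM on K12 and 18.4 and 32.6 CPM on csgA(-), although it overlaps romo-1. flp-26 was at 4.22 and 4.75 CPM against 1.44 and 1.54 CPM. Of 62 neuropeptide-like protein genes (nlp), 3 were lower and 2 higher, and the lower count changed with 1 UM10 library left out. With no overlap 29 were lower and 4 higher, against 19% and 21.7% of all genes tested. The median was -0.44, and -0.75 to -0.48 with 1 UM10 library left out. nlp-43 was at 12.9 and 12.9 CPM against 4.68 and 6.18 CPM. The summed level of 8 general neuronal markers was 460 and 656 CPM on K12 and 751 and 680 CPM on csgA(-), so the sum was higher on csgA(-), although 6 of the 8 had a negative log2 fold change.

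Of 10 dopamine genes tested, 2 were lower and 0 higher at an unadjusted p under 0.05, against 4.65% and 5.27% of all genes tested. The median log2 fold change was -0.22, and -0.84 to -0.00055 with 1 UM10 library left out. bas-1, the decarboxylase that makes dopamine and serotonin, was at 19.1 and 17.3 CPM on K12 and 4.11 and 10.9 CPM on csgA(-). The other lower gene, dop-4, was at 0.733 and 5.49 CPM on K12 and 0.616 and 0.384 CPM on csgA(-). Its log2 fold change of -2.63 was -0.69 without K12 replicate 2. dat-1, the dopamine transporter, overlapped between the foods, with means of 1.74 ± 0.488 CPM on K12 and 2.49 ± 1.09 CPM on csgA(-) (SD, n = 2 each), and cat-2, the tyrosine hydroxylase gene, had 0 and 2 reads on K12 and 1 and 2 reads on csgA(-), too few to test. Among 19 worm homologues of Parkinson disease genes, 1 was lower and 0 higher, and the median was -0.05.

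Of 18 genes of iron, metal transport and metallothioneins, 2 were higher and 2 lower at an unadjusted p under 0.05. The shares of all genes tested were 5.27% and 4.65%. The metallothionein gene mtl-1, whose product binds cadmium and zinc and which is also a target of DAF-16, was at 13.2 and 1.55 CPM on K12 and 76.7 and 82.4 CPM on csgA(-), with 0.797 and 0.259 CPM in N2 (log2 fold change 3.43, DESeq2 adjusted p 0.00120). Both csgA(-) libraries were above all others. mtl-2, its relative, was at 8.91 and 2.69 CPM against 2.05 and 1.57 CPM, so the direction differed between the metallothioneins. argk-1, an arginine kinase raised in long-lived worms of altered growth signalling, was near its limit of detection on csgA(-), at 0.205 and 0.115 CPM, and at 1.39 and 2.58 CPM on K12. Both foods were far from N2, which had 67.4 and 29.6 CPM.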

How the data were processed

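RNA from whole L4 animals, washed in M9, was extracted with TRIzol and enriched for poly-A RNA, per the labels' protocols. The authors deposited 1 table of raw read counts per library, with an unstranded column, used here, and a column per strand. The submitters' processing notes name STAR 2.7.5, DESeq2 1.28.1 and the build WBcel235. The first stranded column held 48.4% to 49.7% of stranded counts, so overlapping genes cannot be told apart. Besides those marked in the text, this touches elo-5, msra-1, nas-37, nhr-114, dpy-8, dpy-10, lon-3, ugt-47, lin-42, mlt-10, spe-47, abf-2, alh-8, pccb-1, gst-4, sod-3, hsp-70, hsp-90, vit-2, vit-4 and WBGene00010967. Summary lines (unmapped, multimapping, ambiguous and outside genes) held 7.85% to 8.72% of reads and were left out, and multimapping reads were 2.57% to 4.05%. Of 46778 gene identifiers, 46603 were in Ensembl release 115, the source of coordinates.

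Genes were kept by filterByExpr (minimum count 10) and scaled by TMM. The main test was edgeR 4.0.16's quasi-likelihood test (R 4.3.3) on all 6 libraries with 1 term per group, 3 residual degrees of freedom and Benjamini-Hochberg adjustment. The common dispersion was 0.152. DESeq2 1.42.0, other scalings and filters, the 4 UM10 libraries alone, a replicate block, the summed strands and leaving out each library were alternatives. The test was tried on simulated data. Replicates differed by more than sampling noise, by a chi-square divided by its degrees of freedom of 119 on K12 and 122 on csgA(-).

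The genes named were the 12 leading ones per direction, 16 preset genes and up to 4 members of smallest p per list. Members and lists were chosen with earlier results of these data known, and genes outside the rule are marked in the text.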

Additional observations from a re-analysis of the deposited data

How the results depend on the processing

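The number of genes called was 0 with TMM, with DESeq2 size factors, with upper-quartile factors, with the summed strands and with only the UM10 libraries. It was 2 with a stricter filter, 470 with no low-count filter, 242 with DESeq2 and 165 with the replicate block. It was 0 to 78 with 1 library left out. The sample titles do not say whether the replicate numbers pair the samples, and the main fit did not pair them. Deviations from the group mean correlated at 0.0933 between same-numbered libraries of the 2 foods. Those of N2 correlated at 0.354 with UM10 on K12 and at -0.0789 with UM10 on csgA(-). These values do not settle whether the replicates were paired. DESeq2, the block and the unfiltered fit shared 131 calls. The median of all genes was -0.06 with DESeq2 and -0.11 with the stricter filter. Some named genes changed sign with 1 library left out, and the cause was not tested. With the lowest value in the fit without csgA(-) replicate 1, the log2 fold change ran from -0.26 to 5.54 for WBGene00002019 and from -0.11 to 7.16 for WBGene00002020, both hsp-16.48, from -1.76 to 7.17 for hsp-70, from -0.39 to 1.60 for hsp-4 and from -0.75 to 1.14 for vit-2. The lowest value came without csgA(-) replicate 2 for gst-24 (-0.34 to 3.23), dat-1 (-0.0704 to 0.75), aex-3 (-0.77 to 0.62) and ctl-1 (-2.15 to 2.16), and the highest for vit-3 (-4.22 to 0.0286). The lowest came without K12 replicate 1 for hsp-6 (-0.19 to 0.97) and hsp-60 (-0.48 to 0.53) and without K12 replicate 2 for mce-1 (-0.28 to 1.12), and the highest came without K12 replicate 2 for F44E5.4 (-3.28 to 3.16) and F44E5.5 (-3.33 to 3.32), both chosen after their values were seen. With the replicate block hsp-70 was at -0.0837. hsp-60, at 0.03, was at -0.014 with DESeq2 size factors and with DESeq2, -0.067 with the stricter filter and -0.00022 with only the UM10 libraries, and ctl-1 was at -0.0066 with the stricter filter. With 2 libraries a group, most 4-fold differences in the simulated counts were not called.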

Other observations

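Cytosolic ribosomal protein genes had a median log2 fold change of 0.24 over 81 genes, 44 of them higher with no overlap against 21.7% of all genes tested and 0 lower against 19%, while 0 had an unadjusted edgeR p under 0.05, and the median was -0.08 without K12 replicate 2. Autophagy and lysosomal genes had a median of 0.30 over 35 genes, with 2 higher and 0 lower at p under 0.05, and 0.02 without csgA(-) replicate 1, where 0 were higher. Genes of glycolysis and of the tricarboxylic acid and glyoxylate cycles had medians of -0.24 and -0.21, with 1 lower gene each. Muscle myosin and thin filament genes had a median of 0.23, with 1 of 29 higher. Of 111 F-box A genes tested, 9 were higher and 0 lower at p under 0.05, against 5.27% and 4.65% of all genes tested. Their median was 0.10 and ranged from -0.35 to 0.41 with 1 UM10 library left out. Of 97 chemoreceptor genes that passed the filter, out of 1365 on the list, 7 were lower, srh-237 among them, and 2 higher. The shares of all genes tested were 4.65% and 5.27%.

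Among genes chosen after their values were seen, Y39B6A.1 was at 1297 and 3016 CPM on K12 and 140 and 121 CPM on csgA(-), with 6486 and 1578 CPM in N2, and its log2 fold change was -4.05 (standard error 0.80). lbp-8, a lipid chaperone of the lysosome, was at 0.953 and 0.811 CPM on K12 and had 0 counts in both csgA(-) libraries, which is at least 7.40-fold lower against a floor of 3 counts per library.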
